A study of Homo sapiens with 4 samples.

Results

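BMF is a BH3-only protein of the BCL2 family, and its mRNA is described here together with those of 6 other BH3-only proteins (BCL2L11, BBC3, PMAIP1, BIK, BID and BAD) and 3 survival proteins (BCL2, BCL2L1 and MCL1). The 10 genes were named by symbol from 34500 genes in the tables and are measured through 82 transcripts. They were selected with the difference between TGF-β1 and control libraries in view, so values in that contrast are a description and carry no test. All 10 genes passed the filter on low counts.

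BH3-only proteins carry a short BCL2 homology 3 (BH3) helix. They start the mitochondrial pathway of apoptosis by occupying the groove of survival proteins or by activating BAX and BAK1, the effectors that open the outer mitochondrial membrane. Survival proteins hold the effectors and the BH3-only proteins in check. In mammary epithelium, BMF and BIM, the protein of BCL2L11, are known for their part in the death of cells that lose contact with the matrix and in clearing the lumen of acini.

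MCF10A cells are human mammary epithelial cells, immortal in culture but not tumorigenic. All of them, controls included, stably expressed the scramble shRNA, a non-targeting hairpin, and grew in medium with EGF, insulin, hydrocortisone, cholera toxin and horse serum. The control group was 2 libraries at 0 h, and the TGF-β1 group was 2 libraries at 1.5 h after TGF-β1 was added at 5 ng/ml. The labels call the libraries biological duplicates and do not say whether a replicate number marks a shared culture or day, so the spread between libraries may be partly technical. TGF-β1, a secreted cytokine, acts on transcription through the SMAD2 and SMAD3 proteins.

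Totals of estimated counts ran from 35737659 to 40792300 per library. In both groups, library 2 stood apart from library 1: edgeR's quasi-likelihood test of number 2 against number 1 called 5524 of 14774 genes (37.4%) at a Benjamini-Hochberg adjusted p under 0.05. The known early TGF-β targets SMAD7, SKIL and JUNB rose by DESeq2's Wald test. Summed TPM (estimated transcript abundance, corrected for length and library size) of 5 basal epithelial markers ran from 4628 to 7199, and of 4 luminal markers from 7.91 to 12.6, with PGR under 0.1. The summed TPM of 5 fibroblast markers was 21.1 and 19.4 in the controls and 28.2 and 25.9 after TGF-β1, with COL1A2 and LUM under 0.1. Both treated libraries were above both controls in this sum, and its part in the results was not tested. The summed TPM of 5 endothelial and blood markers ran from 0.556 to 1.24, with CDH5, CD3E and HBB under 0.1.

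The BH3 coding stretches of the 3 BH3-only genes whose libraries separated by treatment are shown because several of their transcripts described below lack the BH3 core. The stretch of BCL2L1, which separated by library number, is shown beside them. The BCL2L1 transcripts described below all hold the core. Each stretch is 45 bases, with the leucine codon and the aspartate codon of the BH3 core in capitals.
BMF: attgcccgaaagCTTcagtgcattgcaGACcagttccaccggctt
BCL2L11: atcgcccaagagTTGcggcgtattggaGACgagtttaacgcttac
PMAIP1: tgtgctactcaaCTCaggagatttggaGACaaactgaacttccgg
BCL2L1: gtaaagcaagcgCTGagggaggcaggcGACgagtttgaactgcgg
These letters are from GENCODE release 29 transcripts on GRCh38. They lie in single coding exons at chr15:40104192-40104236 (minus strand), chr2:111150091-111150135 (plus strand), chr18:59902661-59902705 (plus strand) and chr20:31721919-31721963 (minus strand), in the order shown. The core was searched as a leucine codon, 3 codons of any kind, a codon for alanine, glycine or serine, and an aspartate codon, in frame. All 10 genes held it, as did 35.4% of 19524 genes in their longest complete coding sequence, so the pattern alone does not mark a BH3 protein.

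BMF was the member that differed most between TGF-β1 and control libraries. BMF, whose protein is known to sit on the dynein light chain of myosin V motors until released, was at 1.06 and 0.956 CPM (counts scaled by library size to a common total) in control replicates 1 and 2 and at 16.6 and 17.6 CPM in TGF-β1 replicates 1 and 2. Both treated libraries were far above both controls, and each pair lay close together. The group means were 1.01 ± 0.0718 and 17.1 ± 0.721 CPM (SD, n = 2 libraries each). Within number 1 the treated library was 15.7-fold higher (95% interval 11.5 to 22.0), and within number 2 it was 18.4-fold higher (13.1 to 26.7). These exact binomial intervals cover counting error only, from 42 and 35 control counts. BMF ranked 7 of 14774 genes by edgeR log2 fold change. In TPM, which corrects for transcript length, BMF was at 0.389 and 0.589 in the controls and 8.11 and 6.22 after TGF-β1. The TPM ratios were 20.8 in number 1 and 10.6 in number 2. In control replicate 2, the short transcripts BMF-205, BMF-208 and BMF-209, at 1.00, 1.00 and 1.56 counts, took 21.8%, 19.1% and 16.5% of the TPM of the gene. In bulk RNA, a change in the number of cells that express a gene and a change in RNA per cell cannot be told apart.

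**Figure D1:**
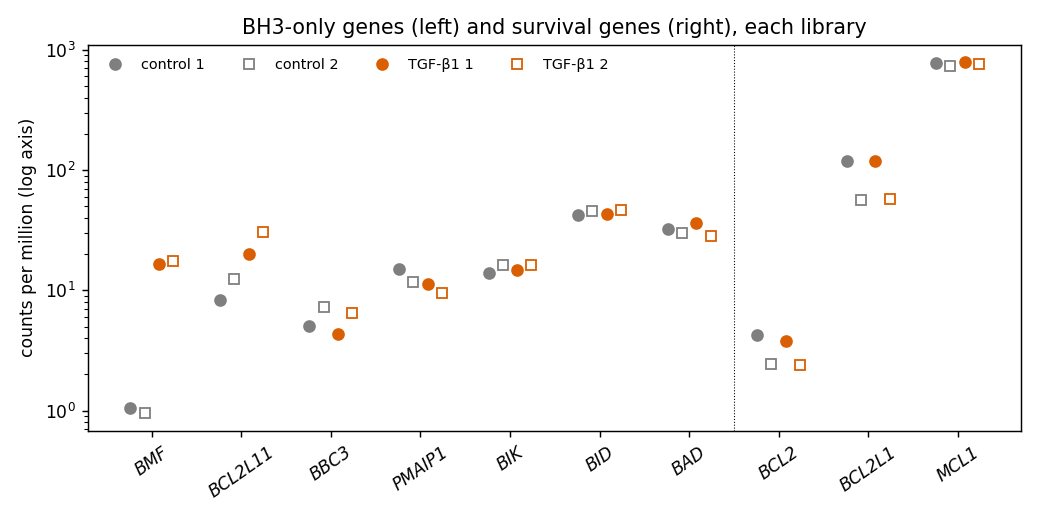
CPM (log axis) of the 7 BH3-only genes and 3 survival genes in each of the 4 libraries; grey marks controls, orange marks TGF-β1, filled circles are replicate 1 and open squares replicate 2. BMF separates by treatment, at 1.06 and 0.956 against 16.6 and 17.6 CPM, and BCL2L1 by replicate number.

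BMF lies on chromosome 15 (40087890 to 40108892, minus strand, GRCh38), and its 10 transcripts start in 2 clusters. The 6 upstream ones start between 40108704 and 40108892, and the 4 downstream ones between 40106086 and 40106645. The RefSeq promoter windows (GRCh38.p14, 250 bases before to 50 after a start) are shown because both clusters differed between the groups. The upstream window is chr15:40108830-40109129 and the downstream one chr15:40106917-40107216, both on the minus strand, and capitals mark a SMAD-box motif (CAGAC).
Upstream BMF promoter: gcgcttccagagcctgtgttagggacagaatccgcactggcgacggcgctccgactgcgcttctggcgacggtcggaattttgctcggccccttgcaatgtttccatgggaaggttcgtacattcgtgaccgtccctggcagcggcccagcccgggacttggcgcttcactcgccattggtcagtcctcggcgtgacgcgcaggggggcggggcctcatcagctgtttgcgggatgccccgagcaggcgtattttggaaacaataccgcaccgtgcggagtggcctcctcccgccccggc
Downstream BMF promoter: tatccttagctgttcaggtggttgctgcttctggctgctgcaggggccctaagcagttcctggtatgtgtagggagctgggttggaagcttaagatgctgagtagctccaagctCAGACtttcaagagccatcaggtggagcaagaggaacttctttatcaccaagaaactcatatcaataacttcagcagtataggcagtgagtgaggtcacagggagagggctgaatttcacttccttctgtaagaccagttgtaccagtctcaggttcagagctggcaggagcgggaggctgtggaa
The start in RefSeq that places the downstream window, at 40106966, lies before all 4 downstream transcript starts. The window ends before them too, so it holds none of these starts. On both strands, 3 motifs were searched, each counted separately: CAGAC (bound by SMAD3 and SMAD4), TGANTCA (AP-1) and GTAAACA (forkhead factors). The downstream window held 1 CAGAC, at position -136 from its RefSeq start and so farther from the starts of the 4 downstream transcripts. Neither window held TGANTCA or GTAAACA. Of 35116 RefSeq promoters of this length, 45.26% held CAGAC, 7.71% TGANTCA and 3.42% GTAAACA. Of the other members with a RefSeq window, BCL2L11 held 1 CAGAC and 1 GTAAACA, BBC3 held 1 CAGAC and 1 TGANTCA, and PMAIP1 held 1 CAGAC. The SMAD-box motif was in 3 of 5 BID windows and 1 of 2 BCL2L1 windows, and the BAD and BCL2 windows held none of the 3 motifs. Genes whose libraries separated by treatment and genes whose libraries overlapped thus both held this motif.

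Transcripts from both BMF start clusters had more counts after TGF-β1. The upstream transcripts took 32.5 and 32.8 estimated counts in the controls and 275 and 367 after TGF-β1, which is 0.817 and 0.895 against 7.02 and 10.6 CPM. The downstream transcripts took 9.19 and 2.22 counts in the controls and 374 and 241 after TGF-β1, or 0.231 and 0.0606 against 9.57 and 6.97 CPM. The downstream share of BMF counts was 22.1% and 6.34% in the controls and 57.7% and 39.6% after TGF-β1, so the groups did not overlap in this share. Except in the downstream cluster of control replicate 2, most of these counts were on 1 transcript per cluster, BMF-201 upstream (31.8, 30.8, 253 and 359 counts in control replicates 1 and 2 and TGF-β1 replicates 1 and 2) and BMF-202 downstream (9.19, 0.659, 351 and 236 counts). In control replicate 2, BMF-209 held 1.56 of the 2.22 downstream counts. Both encode 184 codons with the BH3 core shown above. The division rests on a small part of the sequence. Of 31-base words, 862 of the upstream transcripts' (16.04%) and 174 of the downstream ones' (3.71%) occur in their own cluster alone. The words were compared among the members' transcripts only. Of the 862, 214 are in BMF-205 alone and 317 in BMF-208 alone. BMF-201 has 3 words of its own and BMF-202 has 5. The tables give no error for the division.

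**Figure D2:**
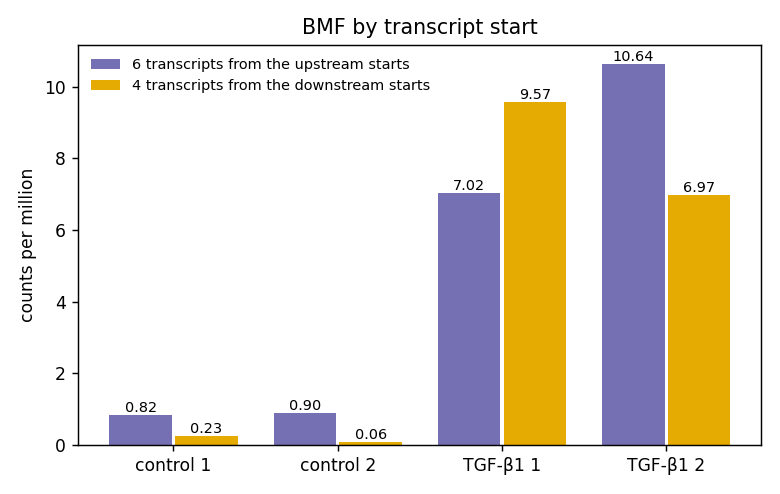
CPM of BMF transcripts in each library, split by transcript start; purple bars are the 6 upstream transcripts and yellow bars the 4 downstream ones. The downstream transcripts are at 0.231 and 0.0606 CPM in the controls and at 9.57 and 6.97 CPM after TGF-β1.

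BCL2L11, which encodes BIM, a BH3-only protein that binds every survival protein and can activate BAX and BAK1, was at 8.31 and 12.4 CPM in the controls and 19.9 and 30.6 CPM after TGF-β1. Both treated libraries were above both controls, and within each group the library numbered 2 was the higher. The treated library was 2.40-fold higher in number 1 (counting interval 2.11 to 2.74) and 2.48-fold higher in number 2 (2.22 to 2.77). BCL2L11 ranked 112 of 14774 genes. Its gene lies on chromosome 2 (111119378 to 111168447, plus strand).

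BCL2L11-206, BCL2L11-220 and BCL2L11-223, from a shared start cluster, carried most of its counts. BCL2L11-206, of 198 codons, the length of the long form known as BIM-EL, took 186 and 366 counts in the controls and 377 and 674 after TGF-β1. BCL2L11-220, of 109 codons with the BH3 core, took 11.7 and 36.9 counts in the controls and 207 and 221 after TGF-β1. Its share of BCL2L11 counts was 3.54% and 8.14% in the controls against 26.6% and 20.9% after TGF-β1, with no overlap. BCL2L11-223, of 135 codons without the core, was listed at 0 in both controls and at 161 and 44.9 counts after TGF-β1. Among short transcripts of other starts, BCL2L11-207 had 7.04 and 2.44 counts in the controls and 1.53 and 7.27 after TGF-β1, and BCL2L11-204 had 2.20 and 1.15 against 6.58 and 4.66 counts. BCL2L11-206, BCL2L11-220 and BCL2L11-223 share nearly all of their sequence: 2, 0 and 26 of their 31-base words are found in no other BCL2L11 transcript. Others of this start cluster, with no such word of their own, also took counts in control replicates 1 and 2 and TGF-β1 replicates 1 and 2. BCL2L11-222 had 52.1, 0, 8.24 and 0 counts, and BCL2L11-221 had 34.3, 0, 0.228 and 0.014. BCL2L11-218 had 25.1, 39.3, 0 and 40.8 counts. The split between all these transcripts is therefore an estimate that rests on few distinguishing words, while the gene's summed counts do not depend on it. The gene's summed TPM does depend on it, through transcript length. The TPM ratios were 1.95 in number 1 and 2.44 in number 2.

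PMAIP1, which encodes NOXA, a p53 target that binds MCL1, was at 14.95 and 11.7 CPM in the controls and at 11.2 and 9.59 CPM after TGF-β1. Both treated libraries were below both controls by a small margin. The ratios of treated to control were 0.749 in number 1 (0.661 to 0.849) and 0.819 in number 2 (0.707 to 0.947). PMAIP1-202, of 54 codons with the BH3 core, had 583 and 419 counts in the controls and 385 and 276 after TGF-β1. PMAIP1-201, of 136 codons without this core in frame, had 0 and 1.83 counts in the controls and 47.2 and 54.8 after TGF-β1. Its share of PMAIP1 TPM was 0% and 0.67% in the controls and 16.1% and 24.5% after TGF-β1, the opposite order to the gene sum. PMAIP1-201 has 29 31-base words of its own and PMAIP1-202 has 867.

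**Figure D3:**
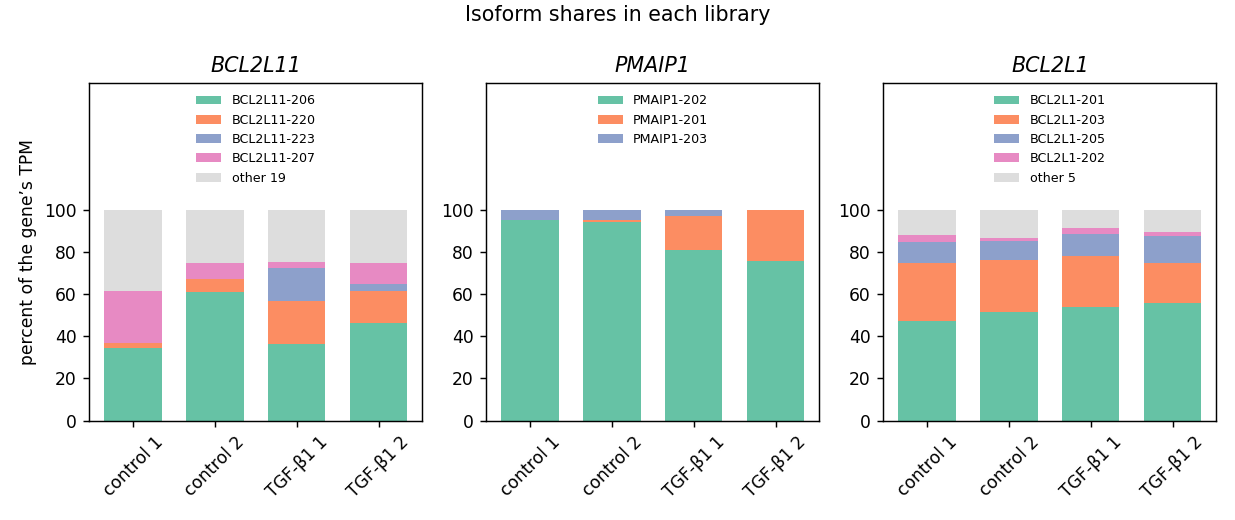
Share of each gene's TPM taken by its transcripts in the 4 libraries, for BCL2L11, PMAIP1 and BCL2L1; grey is the sum of the transcripts not named. PMAIP1-201 takes 0% and 0.67% in the controls and 16.1% and 24.5% after TGF-β1, while BCL2L1-201 takes from 47.2% to 55.7% in all libraries.

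The other 4 BH3-only genes overlapped between the groups. BBC3, which encodes PUMA, another p53 target, was at 5.03 and 7.32 CPM in the controls and 4.37 and 6.43 CPM after TGF-β1. Its ratios were 0.869 and 0.879 in numbers 1 and 2, and both counting intervals included 1. BIK, which acts at the endoplasmic reticulum, was at 14.0 and 16.4 CPM in the controls and 14.7 and 16.3 CPM after TGF-β1. BID, which caspase-8 cleaves to link death receptors to mitochondria, was at 42.4 and 45.3 CPM in the controls and 42.8 and 46.5 CPM after TGF-β1. BAD, which growth factor signals keep phosphorylated and away from survival proteins, was at 32.6 and 29.9 CPM in the controls and 36.3 and 28.2 CPM after TGF-β1. BAD was 1.11-fold higher in number 1 and 0.942-fold in number 2, so its sign differed between the numbers. BAD overlaps GPR137 on the opposite strand, which had 359 to 523 counts per library, and whether strand was used in the quantification is not given in the sources used here. BID-209 led BID at 46.9% to 62.5% of its TPM, with 524 and 375 counts in the controls and 458 and 455 after TGF-β1. BID-215 had 990 and 907 counts in the controls and 817 and 561 after TGF-β1, and BID-205 had 58.7 and 187 against 241 and 423 counts. All 3 have 195 codons, and neither BID-215 nor BID-205 has a 31-base word of its own.

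The 3 survival genes also overlapped between the groups, and each treated library was close to the control of its own number. MCL1, a short-lived survival protein, was at 770 and 734 CPM in the controls and 784 and 759 CPM after TGF-β1. BCL2L1, which encodes BCL-XL, was at 118 and 55.9 CPM in the controls and 118 and 57.6 CPM after TGF-β1. BCL2 was at 4.23 and 2.46 CPM in the controls and 3.78 and 2.38 CPM after TGF-β1. The ratio of treated to control was 1.02 and 1.03 for MCL1, 0.999 and 1.03 for BCL2L1, and 0.895 and 0.967 for BCL2.

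The transcripts of the remaining members are given by their shares and counts. MCL1-202, of 350 codons, the full-length survival form, took 87.9% and 89.0% of MCL1 TPM in the controls and 88.0% and 89.9% after TGF-β1. MCL1-204, of 197 codons with the BH3 core, took 1350 and 1092 counts in the controls and 1119 and 675 after TGF-β1, or 4.41% and 4.06% against 3.65% and 2.58% of MCL1 counts. MCL1-201, of 271 codons, the length of the short form MCL-1S, took 40.4 and 23.5 counts in the controls and 61.2 and 45.2 after TGF-β1. That was 0.132% and 0.087% against 0.2% and 0.173% of MCL1 counts, a small part in every library. MCL1-201 has 28 31-base words of its own, MCL1-204 has 180 and MCL1-202 has 0, so this split is an estimate. BAD-201, of 168 codons, took 67.8% to 76.8% of BAD TPM across the libraries, and BAD-203, of the same coding length, took 10.7% to 18.8%. BBC3-202, of 131 codons with the BH3 core, led BBC3 at 53.8% to 69.9% of TPM. BBC3-201, of 101 codons, lacks the codons of that core. Like BBC3-204 below, it still matched the search pattern 1 time, at other codons. BBC3-201 had 29.1 and 16.8 counts in the controls and 0 and 48.1 after TGF-β1, so its 2 treated libraries bracketed both controls. BBC3-203 (193 codons, with the core) had 14.1 and 53.4 counts in the controls and 28.1 and 14.8 after TGF-β1, and BBC3-204 (261 codons, without it) had 26.7 and 8.33 against 12.2 and 27.0 counts. Both overlapped between the groups. Most BCL2 counts were divided between BCL2-202 (121, 60.4, 95.5 and 56.7 counts in control replicates 1 and 2 and TGF-β1 replicates 1 and 2) and BCL2-201 (39.1, 28.3, 34.6 and 25.3 counts), both of 239 codons. BCL2-203 had 6.53 and 1.27 counts in the controls and 17.96 and 0 after TGF-β1, but took 21.4% and 8.84% against 49.8% and 0% of BCL2 TPM. BCL2-203 is 911 bases long in the deposited data but 5011 bases in GENCODE release 29. Its TPM shares rest on the 911-base length. The BCL2 transcript with the highest TPM differed between libraries, also with BCL2-203 set aside. It was then BCL2-202 in control replicate 1 and TGF-β1 replicate 1, and BCL2-201 in the other libraries. BIK has a single transcript.

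**Figure D4:**
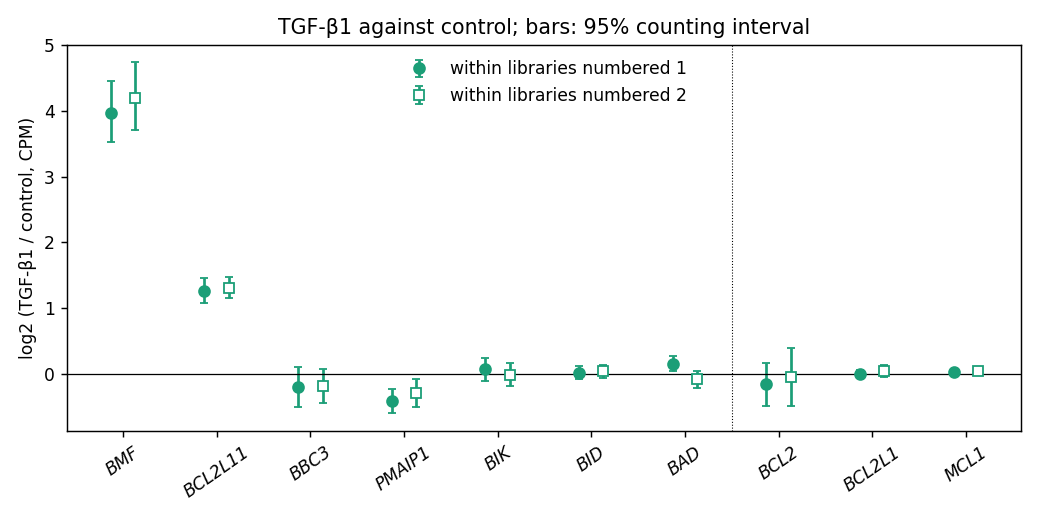
The log2 ratio of TGF-β1 to control CPM for each gene, within libraries numbered 1 (filled circles) and numbered 2 (open squares); bars are 95% exact binomial intervals, which cover counting error only. BMF and BCL2L11 lie above 0 and PMAIP1 below 0 in both numbers, and the other 7 lie between -0.20 and 0.15.

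Over the 10 genes, 4 were higher and 3 lower after TGF-β1 within both numbers, and 3 differed in sign between the numbers. Treated and control libraries did not overlap in CPM for 3 of the 10 genes, as for 16.2% of all tested genes. The median edgeR log2 fold change of the 10 was 0.02, against -0.01 over all genes. EdgeR called 0 of 14774 genes (0%) in this contrast, with 255 at an unadjusted p under 0.05. DESeq2 called 90 of 19649 (0.458%), and BMF was the 1 member among them. Nothing is read from these counts, because the genes were selected on this contrast.

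Per length, the order of control levels ran from MCL1 at 293 and 272 TPM in control replicates 1 and 2 down to BMF at 0.389 and 0.589 TPM. BAD (61.6 and 53.4 TPM), BCL2L1 (76.9 and 35.7 TPM) and BID (53.5 and 54.4 TPM) came next and were not separated by their control values. BIK (24.1 and 27.6 TPM), PMAIP1 (11.7 and 9.00 TPM) and BBC3 (4.92 and 6.93 TPM) followed, each apart from its neighbours. BCL2L11 was at 3.71 and 4.41 TPM and BCL2 at 1.39 and 0.695 TPM. After TGF-β1, BMF at 8.11 and 6.22 TPM overlapped PMAIP1 at 9.25 and 7.52 TPM, BBC3 at 4.24 and 6.16 TPM did not overlap BMF, and BCL2L11 was at 7.25 and 10.8 TPM.

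BMF was a small part of the BH3-only mRNA in every library. Its share of the summed TPM of the 7 BH3-only genes was 0.244% and 0.377% in the controls and 4.64% and 3.86% after TGF-β1. BAD and BID together held most of that sum, with BAD at 30.0% to 38.5% and BID at 30.8% to 34.8%. The BH3-only sum was 159.8 and 156.3 TPM in the controls and 175 and 161 TPM after TGF-β1. Without BMF it was 159 and 156 TPM in the controls and 167 and 155 TPM after TGF-β1, and the groups overlapped. The survival sum was 371 and 308 TPM in the controls and 377 and 305 TPM after TGF-β1. MCL1 took 78.9% to 88.2% of the survival sum.

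The contrast between library numbers did not enter the choice of the genes and was tested. The test takes the 2 libraries of a number as independent, and the labels do not say whether they are. If they share a culture or day, the p-values cover only the spread within it. BCL2L1 was lower in the libraries numbered 2, at 118 ± 0.0727 CPM in number 1 and 56.8 ± 1.23 CPM in number 2 (SD, n = 2 each, 1 control and 1 TGF-β1 library). It fell by 1.05 on the log2 scale (SE 0.04), with an adjusted p of 0.000832 by edgeR's quasi-likelihood test. BCL2 was also lower in number 2, at 4.01 ± 0.314 against 2.42 ± 0.0577 CPM (log2 -0.73 ± 0.16 SE, edgeR adjusted p = 0.0218). BBC3 was higher in number 2, at 4.70 ± 0.468 against 6.87 ± 0.626 CPM (log2 0.55 ± 0.15 SE, edgeR adjusted p = 0.0385). Thus 3 of the 10 genes were called, as were 37.4% of all genes, and the numbers did not overlap for 7 of the 10, as for 72.5% of all genes. Each number holds 1 control and 1 TGF-β1 library. With treatment as a further term, edgeR called 6635 of 14774 genes (44.9%) and 6 of the 10. The 3 gained were BCL2L11 (log2 0.60, edgeR adjusted p = 0.00127), PMAIP1 (-0.29, 0.0444) and BAD (-0.24, 0.0360). The BCL2L1 call held in all 9 alternatives. BCL2 was not called without any 1 library, at adjusted p of 0.0575 to 0.0925, and BBC3 was not called by DESeq2 (adjusted p = 0.0600), by edgeR with no filter (0.0519) or without any 1 library (0.0649 to 0.153).

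The estimated counts of both the long and the short form of BCL2L1 differed between the numbers. BCL2L1-201, of 233 codons, the length of BCL-XL, had 2622 and 2862 counts in the libraries numbered 1 and 1241 and 1319 in those numbered 2. BCL2L1-203, of the same coding length, had 1493 and 1254 against 597 and 442 counts. BCL2L1-202, of 170 codons, the length of the short form BCL-XS that is known to promote death, had 158 and 142 against 28.0 and 39.5 counts. BCL2L1-202 took 3.38% and 3.08% of BCL2L1 counts in number 1 and 1.37% and 1.99% in number 2. BCL2L1-201 has 0 and BCL2L1-202 has 28 31-base words of its own, so this split is an estimate that rests on few distinguishing words. BCL2L1-205, whose annotated coding sequence of 188 codons is incomplete, had 232 and 217 counts in number 1 and 87.1 and 122 in number 2.

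**Figure D5:**
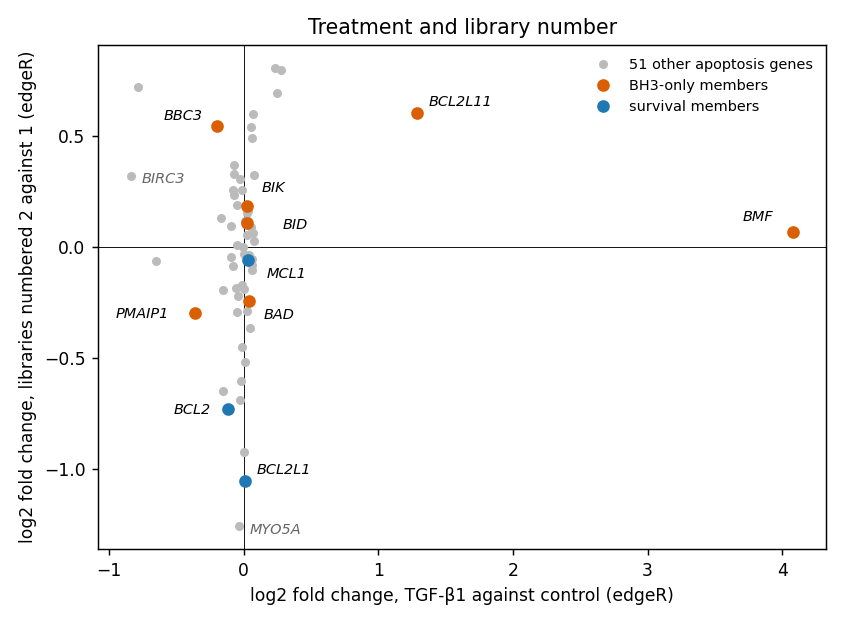
EdgeR log2 fold change of TGF-β1 against control (x axis) and of libraries numbered 2 against 1 (y axis) for the 7 BH3-only genes (orange), 3 survival genes (blue) and 51 other apoptosis genes (grey). BMF and BCL2L11 lie to the right, and BCL2L1 and MYO5A lie lowest, at -1.05 and -1.26.

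Of 55 other genes of the apoptosis pathway, 51 were tested, and edgeR and DESeq2 called 0 of them in either direction in the TGF-β1 contrast. Over all genes, edgeR called 0 of 14774 and DESeq2 90 of 19649 (0.458%), so nothing is read from this count. Of the 51, 1 was at an unadjusted edgeR p under 0.05, as were 255 of all 14774 genes. It was BIRC3, which encodes the inhibitor of apoptosis cIAP2. BIRC3 was at 238 and 297 CPM in the controls and 133 and 167 CPM after TGF-β1, so the groups did not overlap (log2 -0.83 ± 0.19 SE, edgeR adjusted p = 1, DESeq2 adjusted p = 0.163). DDIT3, the stress-response factor CHOP, was at 4.86 and 5.24 CPM in the controls and 3.58 and 2.84 CPM after TGF-β1, also without overlap (edgeR adjusted p = 1). The effectors BAX (37.8 and 36.9 against 36.3 and 40.0 CPM) and BOK (31.2 and 36.3 against 33.3 and 35.95 CPM) overlapped between the groups. The survival gene BCL2L2 was at 30.4 and 36.6 CPM in the controls and 31.1 and 33.6 CPM after TGF-β1. Among the others, the mitochondrial channel VDAC1 (778 and 851 against 831 and 863 CPM), the beclin gene BECN1 (72.0 and 75.4 against 72.6 and 70.2 CPM) and the death receptor TNFRSF10B (146 and 219 against 157 and 222 CPM) also had overlapping groups. BCL2L15, under 1 CPM in each library, was at 0.453 and 0.737 CPM in the controls and 0.256 and 0.435 CPM after TGF-β1, without overlap (edgeR log2 -0.78). CASP9 (7.58 and 11.2 against 8.13 and 14.2 CPM) and TNFSF10 (4.91 and 6.03 against 3.73 and 9.13 CPM) overlapped between the groups. Their edgeR log2 fold changes were 0.25 and 0.23. BCL2L15, CASP9 and TNFSF10 did not pass. The median log2 fold change of the 51 was -0.005.

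The genes that tether BMF and BIM were described as well. DYNLL1, the dynein light chain that holds BIM, was at 189 and 133 CPM in the controls and 181 and 138 CPM after TGF-β1, and was lower in number 2 (log2 -0.45, edgeR adjusted p = 0.00279). DYNLL2, the light chain that holds BMF, was at 39.1 and 35.2 CPM in the controls and 39.8 and 32.5 CPM after TGF-β1 (number contrast log2 -0.22, edgeR adjusted p = 0.0403). MYO5A, the myosin V heavy chain, was at 74.2 and 31.5 CPM in the controls and 73.2 and 30.1 CPM after TGF-β1 (number contrast log2 -1.26, edgeR adjusted p = 0.000792). All 3 followed the library number. None was called in the TGF-β1 contrast, in which edgeR called 0 of all 14774 genes. DYNLL2 and MYO5A were chosen for naming after their values were seen. In the number contrast edgeR called 10 of the 51 genes higher and 14 lower, against 2422 higher and 3102 lower of all 14774 genes.

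The 5 genes whose centred log2 CPM lay nearest to BMF over the 4 libraries, by Euclidean distance, were SMAD7 (0.41), OVOL1 (0.47), SAMD11 (0.53), CSRNP1 (0.66) and ID2 (0.81). SMAD7, an inhibitory SMAD, was 15.0-fold and 12.1-fold higher after TGF-β1 in numbers 1 and 2, and OVOL1, a zinc-finger factor, was 20.0-fold and 14.3-fold higher. SAMD11 was at 0.604 and 0.491 CPM in the controls and 7.01 and 6.72 CPM after TGF-β1. Among the other members the nearest was BCL2L11, at a distance of 2.78 and rank 97. This ranking uses the TGF-β1 contrast itself and is a description of 4 libraries.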

How the data were processed

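RNA of 4 MCF10A libraries was sequenced as short paired ends from stranded, ribosomal-RNA-depleted libraries, per the labels' protocols, although the molecule field says polyA RNA and the extraction protocol mentions a check of PHF8 overexpression. Per the submitters' processing notes, the authors used kallisto and GRCh38 (its version and the transcript release: not given in the sources used here). Per transcript, the deposited tables hold estimated counts, TPM and effective lengths, per the file headers.

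Of 173259 transcripts, 159239 matched GENCODE release 29 and were summed to 34500 genes. The unmatched ones held 2.24% to 2.38% of counts. Estimated counts were rounded, kept by filterByExpr (14774 genes) and scaled with TMM to CPM in edgeR 4.0.16 (R 4.3.3), with the quasi-likelihood test and Benjamini-Hochberg adjustment over all genes. Each SE is approximate, taken as the log2 fold change over the root of the F statistic. Isoform values use the deposited TPM and counts. The scripts were tested on simulated data, which for the TGF-β1 contrast held no difference between library numbers, unlike these libraries.

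The 10 genes and the lists were chosen with earlier results of these data known. Besides the members, the text names from each list the called genes, the gene with the highest control TPM and the one with the largest log2 fold change, the 5 genes nearest BMF, and isoforms with at least 10% of a gene's TPM in 1 library. Other isoforms (BCL2L1-202, MCL1-201 and MCL1-204) and DYNLL2 and MYO5A were picked after their values were seen. Alternatives were DESeq2 1.42.0, RLE scaling, no filter, at least 50 counts in 2 libraries, limma 3.58.1 on log2(TPM + 1), length offsets, the replicate number as a block, treatment as a further term in the number contrast, and leaving out each library. DESeq2 without each library was added after seeing the data. Of the 10 genes, 8 matched a RefSeq promoter. The result of 1 listed gene is not reported here.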

Additional observations from a re-analysis of the deposited data

How the results depend on the processing

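In the TGF-β1 contrast 0 genes were called by edgeR with TMM, RLE scaling or at least 50 counts in 2 libraries and by limma on log2(TPM + 1). EdgeR called 15 with no filter and 3 with length offsets, and DESeq2 called 90. Leaving out 1 library gave 0 to 20 genes by edgeR, and DESeq2 gave 67 and 62 on dropping the first or second control and 46 and 71 on dropping the first or second TGF-β1 library. Those fits set 1 library against libraries of both numbers and assume that it varies like the others. With the replicate block edgeR called 335 genes and DESeq2 245. The differences between numbers correlated between the groups (r = 0.678 across 14774 genes, which are not independent replicates), but with 2 pairs and no label that ties them, the numbers are not taken as a pairing. BMF stayed higher in all 19 alternatives (log2 2.45 to 4.18), lowest with TPM + 1, which understates low genes. BCL2L11 ran from 0.95 (without TGF-β1 replicate 2) to 1.62, and PMAIP1 from -0.53 to -0.15 (without control replicate 1). BCL2L1 ran from -0.60 to 0.67, since a fit without 1 library carries the difference between numbers. The number contrast called 5524 genes, and 3018 to 4020 without 1 library. BCL2 rests on at most 168 counts per library, and BMF in controls on at most 42.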
